A study of Homo sapiens with 6 samples.

Results

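The genes described here are 10 effectors of the ATF4-CHOP-TRIB3 stress response: ATF4, DDIT3, TRIB3, CHAC1, ATF3, ATF5, CEBPB, CEBPG, JDP2 and NUPR1. They were chosen by symbol, with earlier results of these data known. All 10 were found among the 16376 genes of the deposited table. Their messenger RNA was measured by RNA sequencing in HOS, an established human osteosarcoma cell line, with 3 libraries per group. One group was wild-type HOS cells given Agrimol B, a phloroglucinol compound of agrimony plants, for 24 h. The other was wild-type HOS cells for which the labels list no treatment. Neither a solvent for the controls nor the concentration of the compound is stated in the labels. All 6 libraries come from 1 cell line, and the labels do not say that replicates were separate cultures, so each p-value measures the group difference only against a spread between libraries that may be technical.

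ATF4 is the transcription factor at the centre of the integrated stress response. When a kinase of the eIF2-alpha family slows general translation, the ATF4 messenger RNA is translated better, so that the protein can rise with little change in its transcript. ATF4 then binds DNA in pairs with other leucine zipper factors, many of them of the C/EBP family, and turns on genes for amino acid supply, for further transcription factors such as DDIT3 (CHOP), and for the pseudokinase TRIB3, which feeds back on ATF4 and CHOP. Prolonged CHOP activity is known for its link to cell death.

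Levels are given in FPKM, a fragment count corrected for gene length and library size, so that levels of different genes can be compared. Differences were tested on log2(FPKM + 1) with limma across the 12143 genes whose mean over the libraries reached 1 FPKM, with Benjamini-Hochberg adjustment over all of them and a threshold of adjusted p 0.05. All 10 genes passed this filter on low values. Folds divide the mean FPKM of one group by that of the other. Group means are given ± SD (n = 3 libraries per group).

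Total FPKM lay between 352990 and 359537, but FPKM is already corrected for library size, so these totals do not show how large the libraries were. From genes of very few reads, the depths of the other 5 libraries were estimated at 0.99 to 1.19 times that of the first control library. Each estimate rests on a ratio shared by only 6.15% to 10.8% of such genes, and the number of reads itself is unknown. The osteoblast and mesenchymal markers RUNX2, ALPL, COL1A1, COL1A2, SPARC and VIM were present at means of 5.15 FPKM or more in both groups. With Agrimol B, 5 of these 6 fell, and RUNX2 did not pass the test. SP7 was not analysed here. Of 9 markers of epithelial, blood and endothelial cells, 8 were in the table. CDH1, PTPRC, PECAM1, VWF and CDH5 stayed below 1 FPKM in all 6 libraries (PTPRC was listed at 0 in 5 of them, and 0 of the 8 markers was at 0 in all), and EPCAM stood at 12.8 to 14.7 FPKM in all 6. CD14, a receptor of monocytes, stood at 1.31, 1.19 and 1.81 FPKM in control and at 0.393, 0.597 and 0.774 FPKM in Agrimol B libraries, and fell by 0.62 on the log2 scale (limma adjusted p = 0.00964). The keratin KRT5 stood at 10.4 FPKM in Agrimol B replicate 3 and at most at 0.735 FPKM in the other 5 libraries. The 8 markers summed to 15.4 to 17.2 FPKM in control libraries and to 13.5 to 26.1 FPKM in Agrimol B libraries, with the highest sum in replicate 3.

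Short elements that bind leucine zipper factors were searched for on both strands around each annotated RefSeq start (GRCh38.p14). The window ran from 250 bases before to 50 bases after the start. Windows were found for 9 of the 10 genes, 20 windows in all, and for NUPR1 none was used. The C/EBP-ATF composite element, searched as TGATGCAA, is the sequence through which ATF4 and a C/EBP partner are known to bind. It occurred in windows of CHAC1, CEBPG and JDP2, that is in 3 of 9 genes, against 1.08% of 27305 genes with a window. The elements searched here and below were chosen after these windows had been read. Such counts therefore cannot test whether an element is more common among these genes. Genes with several starts have more windows in which a match can fall, and JDP2 and CEBPG had 3 and 2. The stretches are shown 5′ to 3′ on the strand of the gene, with the match in capitals; all 3 genes lie on the plus strand, and the CHAC1 match is on the opposite strand.
CHAC1, chr15:40953251-40953280: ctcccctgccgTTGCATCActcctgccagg
CEBPG, chr19:33374045-33374104: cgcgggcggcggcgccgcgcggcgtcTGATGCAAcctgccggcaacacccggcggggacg
JDP2, chr14:75427995-75428024: atagccggggcTGATGCAAcccgtcccgcc
With the first base of the transcript as 0, the CHAC1 match begins at position -209, inside an untranslated exon of another annotated CHAC1 transcript. The CEBPG and JDP2 matches begin at -42 and -16 and lie in no annotated exon.

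The AP-1 site, searched as TGACTCA, is bound by FOS, JUN and related factors, with which ATF3 and JDP2 form pairs. It occurred in windows of DDIT3 and ATF5, in 2 of 9 genes against 6.05% of all genes with a window. The matches are shown whatever the messenger RNA of the gene did, and DDIT3 and ATF5 had 2 and 3 windows.
DDIT3, chr12:57520738-57520764, minus strand: gcgcgcgcaTGACTCAcccacctcctc
ATF5, chr19:49928707-49928735, plus strand: ggagagtgctgTGACTCAtgctggactct
The cyclic AMP response element, searched as TGACGTCA, and the ER stress response element, searched by its consensus, occurred in 0 of the 9 genes. They occurred in 2.25% and 0.0916% of all genes with a window. A match is only a run of letters in these windows. Variants of the searched letters, and elements farther from a start, were not searched, so a gene without a match may still carry such an element. The DDIT3 match lies in no annotated exon, from position -241, beside an untranslated exon of MBD6 on the opposite strand. The ATF5 match begins at -188, in untranslated exons of other ATF5 transcripts and of NUP62.

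With Agrimol B, 6 of the 10 genes rose (TRIB3, DDIT3, CEBPB, CHAC1, CEBPG and ATF4), 0 fell, and 4 did not pass the test (ATF3, ATF5, JDP2 and NUPR1). Among all 12143 tested genes 30.6% rose and 21.4% fell, 52.0% in all. Rises made up 58.8% of these calls, against 49.5% with median-ratio scaling and 50.1% with quantile normalization, while the same 6 of the 10 genes rose under both. The median log2 difference of the 10 genes was 0.96, against 0.07 over all tested genes. In each of the 6 genes that rose, the lowest Agrimol B library lay above the highest control library, which held for 36.2% of all tested genes (62.2% had groups apart in either direction). In bulk libraries, more cells that express a gene and more RNA per cell cannot be told apart. Of the 10 genes, 5 passed the test with a log2 difference of at least 1, against 2.35% of all tested genes. Because the 10 genes were chosen with earlier results known, these counts cannot test whether they rise more often than other genes.

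**Figure D1:**
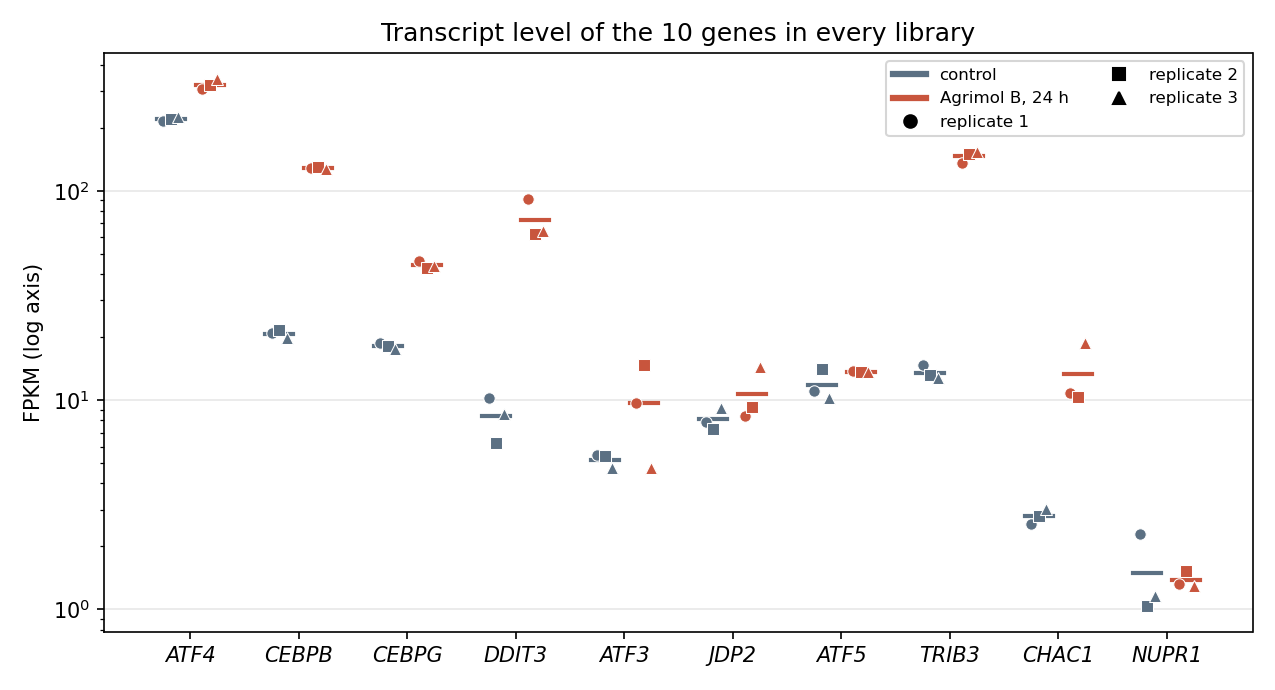
FPKM (log axis) of the 10 genes in each of the 3 control and 3 Agrimol B libraries; points are libraries, with a symbol per replicate, and horizontal bars are group means. For ATF4, CEBPB, CEBPG, DDIT3, TRIB3 and CHAC1 the lowest Agrimol B library is above the highest control library, and for ATF3, JDP2, ATF5 and NUPR1 the groups overlap.

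ATF4 (chromosome 22, 39519695 to 39522685, plus strand, hg38, GENCODE release 29), the regulator of the group, had the highest level of the 10 genes in both groups. It stood at 215, 219.9 and 226 FPKM in the control libraries and at 306, 319 and 341 FPKM in the Agrimol B libraries. The groups did not overlap, and the lowest Agrimol B library stood 1.35-fold above the highest control library. The mean rose 1.46-fold, from 220.2 ± 5.88 to 322 ± 17.8 FPKM, with a log2 difference of 0.54 (95% confidence interval 0.42 to 0.66, limma adjusted p = 0.000325). This was the smallest fold among the 6 genes that rose, while the gain of 102 FPKM was the third largest. GENCODE lists 4 pseudogenes named after ATF4, and the labels do not say how reads common to them were assigned.

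DDIT3 (chromosome 12, 57516588 to 57521737, minus strand) encodes CHOP, the C/EBP-family factor that ATF4 induces. It stood at 10.3, 6.24 and 8.62 FPKM in the control libraries and at 91.6, 61.8 and 64.5 FPKM in the Agrimol B libraries. Every Agrimol B library was at least 6.03 times as high as every control library, and replicate 1 was the highest of each group. The log2 difference was 2.98 (95% confidence interval 2.46 to 3.49, limma adjusted p = 0.000147), the 7th largest of the 12143 tested. Exons of DDIT3 overlap a protein-coding gene model on its own strand, AC022506.1, which was not analysed here. They also overlap MARS and MBD6 on the other strand. These neighbours were chosen after their values were seen. MARS rose 1.41-fold and MBD6 1.53-fold (limma adjusted p = 0.0294 and 0.00525), and the labels do not say whether the counting used strand.

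TRIB3 (chromosome 20, 362835 to 397559, plus strand), a pseudokinase that CHOP and ATF4 induce and that restrains them, had the largest difference of the 10 genes and the 5th largest of all tested. Its level was 14.6, 13.2 and 12.8 FPKM in the control libraries and 136, 150.2 and 154 FPKM in the Agrimol B libraries. The groups were far apart, with a 9.26-fold gap between the nearest libraries. The log2 difference was 3.34 (95% confidence interval 3.17 to 3.52, limma adjusted p = 6.30e-06), and the gain of 133 FPKM was the largest of the 10 genes.

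CHAC1 (chromosome 15, 40952962 to 40956519, plus strand) encodes an enzyme that breaks down glutathione and is a target of the ATF4 and CHOP pathway. Its level was 2.56, 2.80 and 3.02 FPKM in the control libraries and 10.8, 10.3 and 18.7 FPKM in the Agrimol B libraries. All 3 Agrimol B libraries were above all 3 control libraries, and replicate 3 stood 1.77-fold above the mean of the other Agrimol B libraries. The mean rose 4.75-fold, from 2.79 ± 0.229 to 13.3 ± 4.71 FPKM, with a log2 difference of 1.87 (95% confidence interval 1.34 to 2.39, limma adjusted p = 0.000869). Without Agrimol B replicate 3 the fold was 3.78.

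CEBPB and CEBPG, C/EBP factors like DDIT3, rose with little spread between libraries. CEBPB (chromosome 20, 50190734 to 50192689, plus strand), a factor of inflammatory and stress responses and a known partner of ATF4, stood at 20.9, 21.6 and 19.7 FPKM in control libraries. In the Agrimol B libraries it stood at 128.4, 129.5 and 126.9 FPKM, a range of only 1.02-fold. The log2 difference was 2.57 (95% confidence interval 2.46 to 2.68, limma adjusted p = 3.65e-06), the 10th largest of all tested. CEBPG (chromosome 19, 33373330 to 33382686, plus strand), which lacks a strong activation domain and pairs with ATF4, stood at 18.7, 18.05 and 17.6 FPKM in control and at 46.4, 42.8 and 43.8 FPKM in Agrimol B libraries. Its mean rose 2.44-fold, from 18.1 ± 0.533 to 44.3 ± 1.85 FPKM (log2 difference 1.24, 95% confidence interval 1.12 to 1.36, limma adjusted p = 2.56e-05). An antisense gene, CEBPB-AS1, overlaps the CEBPB exon and was not analysed here.

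**Figure D2:**
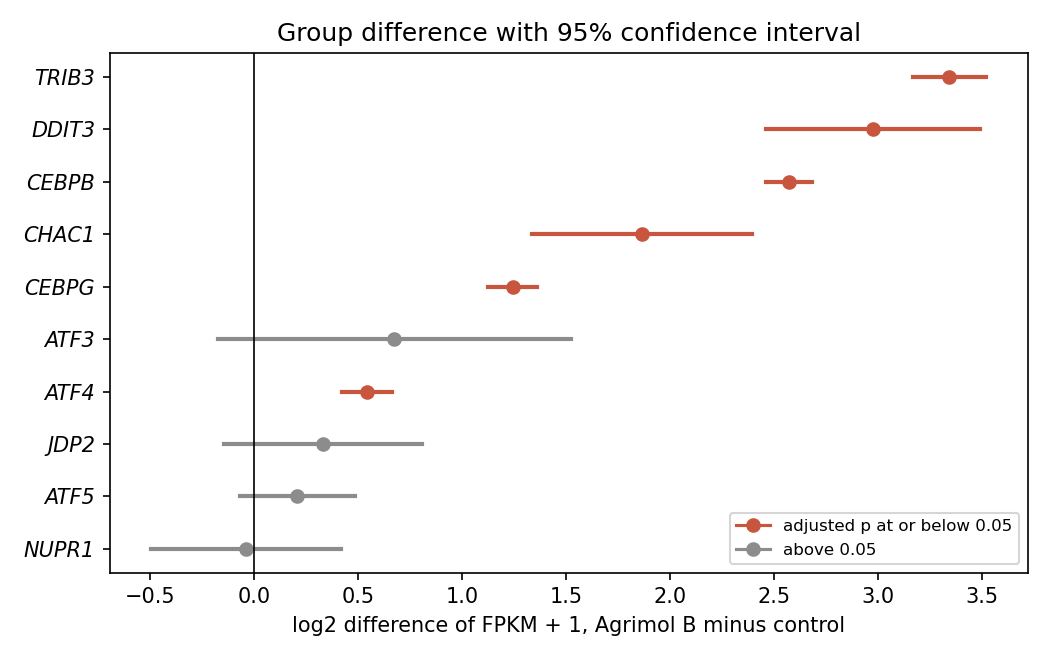
Log2 difference of FPKM + 1 (Agrimol B minus control, horizontal axis) for each of the 10 genes, with its 95% confidence interval as a line; red marks an adjusted p at or below 0.05. TRIB3, DDIT3 and CEBPB lie above 2.4 with their whole intervals, and the intervals of ATF3, JDP2, ATF5 and NUPR1 include 0.

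The 4 genes that did not pass the test differed in how. ATF3 (chromosome 1, 212565334 to 212620777, plus strand), a stress-induced transcription factor of the CREB/ATF family, stood at 5.47, 5.39 and 4.73 FPKM in control libraries. In the Agrimol B libraries it stood at 9.67, 14.7 and 4.75 FPKM. Replicates 1 and 2 were above all control libraries, and replicate 3 was within the control range. The log2 difference of 0.67 had a 95% confidence interval from -0.17 to 1.52 (limma adjusted p = 0.151). Without Agrimol B replicate 3 the difference was 1.07 (adjusted p = 0.00792) and the fold 2.34 instead of 1.87, and over all 12 alternatives run the adjusted p was 0.00792 to 0.342.

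JDP2 (chromosome 14, 75427716 to 75474111, plus strand), a repressor of AP-1 related to ATF3, stood at 7.88, 7.31 and 9.13 FPKM in control libraries and at 8.41, 9.28 and 14.4 FPKM in Agrimol B libraries. The groups overlapped, and replicate 3 of the Agrimol B group was the highest library. The log2 difference was 0.33 (95% confidence interval -0.14 to 0.81, limma adjusted p = 0.199), and without Agrimol B replicate 3 it was 0.12. An antisense gene overlaps its exons and was not analysed here.

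ATF5 (chromosome 19, 49928702 to 49933935, plus strand), a close relative of ATF4 that is also controlled by translation and acts in the mitochondrial stress response, stood at 11.1, 14.1 and 10.2 FPKM in control libraries. The 3 Agrimol B libraries were nearly identical, at 13.74, 13.68 and 13.63 FPKM, and lay just below control replicate 2. The log2 difference was 0.21 (95% confidence interval -0.06 to 0.48, limma adjusted p = 0.165). Without control replicate 2 it was 0.34 (adjusted p = 0.00887), and over all 12 alternatives the adjusted p was 0.00887 to 0.393. Exons of ATF5 overlap NUP62 and IL4I1 on the other strand. Both of these, chosen after their values were seen, fell slightly, by 0.12 and 0.34 on the log2 scale (limma adjusted p = 0.0368 and 0.0109).

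NUPR1 (chromosome 16, 28532708 to 28539174, minus strand), a small chromatin protein of stressed cells, was the lowest of the 10 genes in both groups. It stood at 2.29, 1.04 and 1.16 FPKM in control and at 1.32, 1.52 and 1.30 FPKM in Agrimol B libraries. Control replicate 1 was the highest of the 6 libraries, and the other 5 lay close together. The log2 difference was -0.04 (95% confidence interval -0.49 to 0.42, limma adjusted p = 0.883), and without control replicate 1 it was 0.18 (adjusted p = 0.132). The interval spans folds of 0.711 to 1.34 on the scale of FPKM + 1, which is far from the rises of TRIB3 and DDIT3, but a smaller change was not resolved.

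The order of levels changed around ATF4. In control libraries the means ran from ATF4 through CEBPB, CEBPG, TRIB3, ATF5, DDIT3, JDP2, ATF3 and CHAC1 to NUPR1. The library ranges overlapped between TRIB3 and ATF5, ATF5 and DDIT3, and DDIT3 and JDP2. With Agrimol B the order was ATF4, TRIB3, CEBPB, DDIT3, CEBPG, ATF5, CHAC1, JDP2, ATF3 and NUPR1. The first 5 of these had ranges that did not overlap their neighbours, and ATF5, CHAC1, JDP2 and ATF3 could not be ordered beyond their spread. TRIB3, below CEBPB and CEBPG in every control library, stood above both in every Agrimol B library.

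The 10 genes together summed to 308, 309.7 and 313 FPKM in the control libraries and to 752, 753 and 783 FPKM in the Agrimol B libraries. ATF4 made up 70.9% ± 1.33 of this sum in control and 42.2% ± 1.45 in Agrimol B libraries. TRIB3 went from 4.36% ± 0.348 to 19.2% ± 1.03, CEBPB from 6.69% ± 0.358 to 16.8% ± 0.543, and DDIT3 from 2.70% ± 0.657 to 9.55% ± 2.29. The share of CEBPG was 5.84% ± 0.217 in control and 5.81% ± 0.310 in Agrimol B libraries.

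C/EBP proteins act as pairs, so the levels of the family members were set beside each other. The 6 C/EBP genes in the table (CEBPA, CEBPB, CEBPD, CEBPE, CEBPG and DDIT3) summed to 57.2 ± 1.92 FPKM in control and to 259 ± 18.6 FPKM in Agrimol B libraries. CEBPB made up 35.2%, 38.3% and 35.3% of the sum in control libraries and 45.8%, 52.4% and 50.9% in Agrimol B libraries. DDIT3 made up 17.2%, 11.1% and 15.4% in control and 32.7%, 25.0% and 25.9% in Agrimol B libraries. CEBPG, although its own level rose, went from 31.7% ± 0.282 to 17.1% ± 0.531 of the sum, and CEBPD from 13.9% ± 1.01 to 3.96% ± 0.170. The levels of CEBPD and CEBPA, chosen after their values were seen, rose 1.29-fold and 1.66-fold (limma adjusted p = 0.00326 and 0.00628). In the shares of CEBPB, DDIT3, CEBPG and CEBPD the groups did not overlap, and the exact two-sided permutation test gave p = 0.10, the smallest that 3 against 3 libraries allow.

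**Figure D3:**
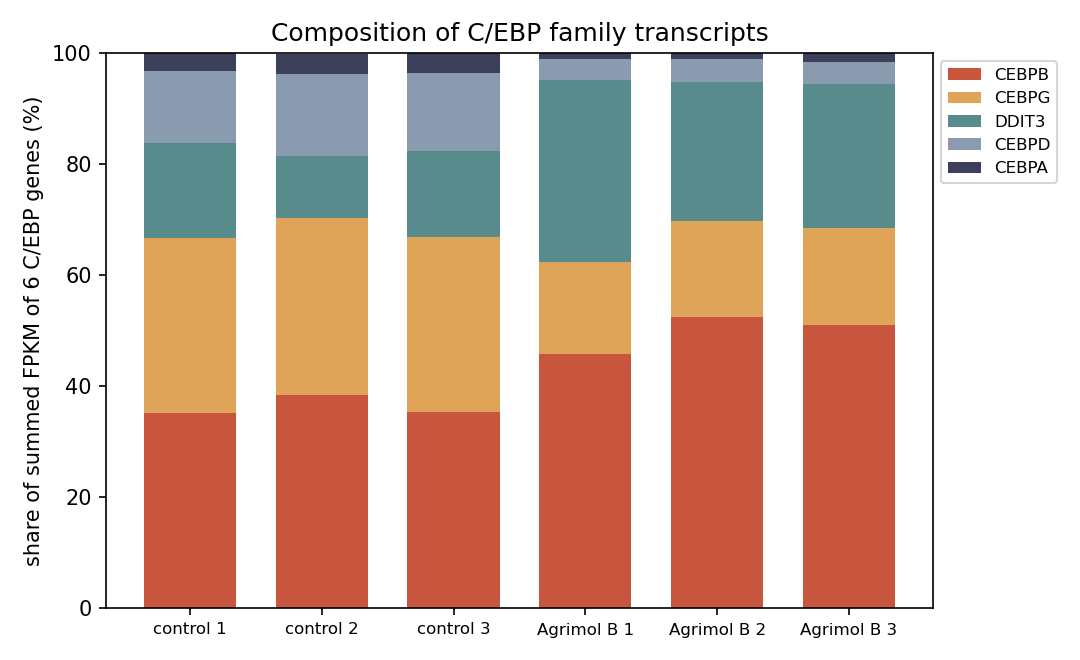
Share of the summed FPKM of 6 C/EBP genes (percent, stacked bars) in each control and Agrimol B library; CEBPE is too low to be drawn. CEBPB makes up 35.2% to 38.3% in control and 45.8% to 52.4% in Agrimol B libraries, and DDIT3 11.1% to 17.2% and 25.0% to 32.7%.

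Ratios between 2 of the genes within a library do not depend on how libraries are scaled, and 6 pairs were compared. The level of DDIT3 relative to ATF4 was 0.0478, 0.0284 and 0.0381 in control and 0.300, 0.194 and 0.189 in Agrimol B libraries, a 5.97-fold shift with no overlap. CHAC1 relative to ATF4 shifted 3.14-fold and CEBPB relative to CEBPG 2.53-fold, from 1.15 ± 0.0465 to 2.90 ± 0.128, also with no overlap. ATF5 relative to ATF4 went from 0.0537 ± 0.00972 to 0.0426 ± 0.00250. Its groups were apart only by 0.04508 in the lowest control against 0.04495 in the highest Agrimol B library, and the log2 change of -0.32 was -0.18 without control replicate 2. For these 4 pairs the exact two-sided permutation p was 0.10, the smallest this design allows, and 0.15 after Benjamini-Hochberg adjustment over the 6 pairs.

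In the other two pairs the groups overlapped. TRIB3 stood at 1.43, 2.11 and 1.48 times the level of DDIT3 in control and at 1.48, 2.43 and 2.39 times in Agrimol B libraries (exact permutation p = 0.30, adjusted 0.36). The mean log2 ratio of TRIB3 to DDIT3 was 0.31 higher with Agrimol B, less than the pooled SD of 0.36 between libraries, so a difference between the rises of these 2 genes was not resolved. The value was 0.19 without Agrimol B replicate 2, 0.20 without Agrimol B replicate 3, 0.49 without control replicate 2 and 0.55 without Agrimol B replicate 1. ATF3 stood at 0.695, 0.738 and 0.518 times the level of JDP2 in control and at 1.15, 1.59 and 0.330 times in Agrimol B libraries (exact permutation p = 0.60, adjusted 0.60).

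Spread within the Agrimol B group differed widely between the 10 genes. The highest library exceeded the lowest by 3.10-fold for ATF3, 1.81-fold for CHAC1, 1.72-fold for JDP2 and 1.48-fold for DDIT3, and by at most 1.17-fold for the other 6. Over all tested genes the median was 1.14-fold, and 0.708% of genes reached the value of ATF3, 4.32% that of CHAC1 and 5.41% that of JDP2. Replicate 3 was the highest library for CHAC1 and JDP2, 1.77-fold and 1.63-fold above the mean of the other Agrimol B libraries, and the lowest for ATF3, at 0.390 times that mean.

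Replicate 3 was also the library with KRT5 at 10.4 FPKM. The squamous epithelial genes KRT6A, KRT14, KRT17, S100A8 and S100A9, chosen after their values were seen, stood there at 4.08 to 5.89 FPKM and at no more than 1.30 FPKM in any other library. The part of these transcripts in the levels of CHAC1, JDP2 and ATF3 was not tested. Of all tested genes, 3.95% differed at least 1.5-fold between replicate 3 and the mean of the other Agrimol B libraries, against 3.98% for replicate 1 and 3.84% for replicate 2. The rises of TRIB3, DDIT3, CEBPB, CEBPG and ATF4 were 10.6-fold, 9.17-fold, 6.22-fold, 2.46-fold and 1.42-fold without replicate 3.

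**Figure D4:**
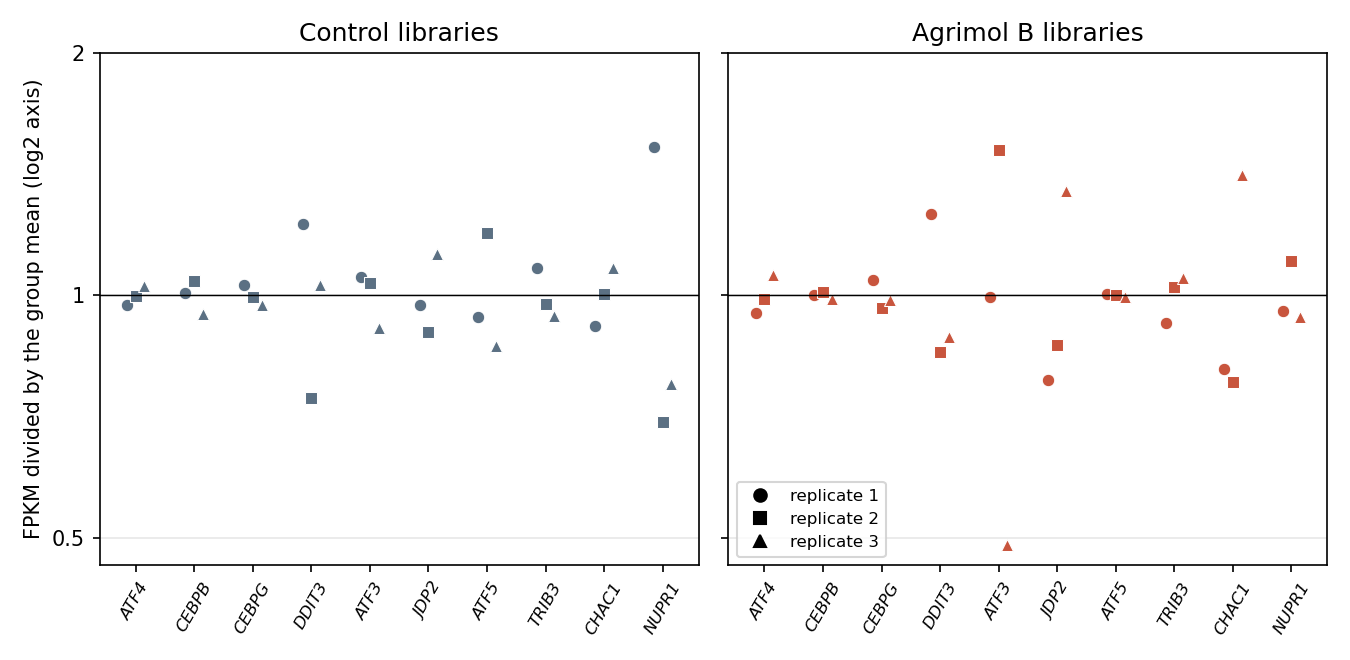
FPKM of each library divided by the mean of its group (log2 axis), for the 10 genes in control libraries (left) and Agrimol B libraries (right), with a symbol per replicate. In the Agrimol B group CEBPB and ATF5 lie on the line at 1, and replicate 3 is high for CHAC1 and JDP2 and low for ATF3.

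The eIF2-alpha machinery acts upstream of ATF4. The list of its genes and the other pathway lists below were chosen with earlier results of these data known. Their counts describe the listed genes and cannot test whether a pathway responds. Of 16 tested genes for the eIF2-alpha kinases, eIF2, its exchange factor eIF2B and the phosphatase subunits, 9 rose and 1 fell, with a median log2 difference of 0.27, beside 30.6% and 21.4% of all tested genes. PPP1R15A (GADD34), the stress-induced subunit that directs dephosphorylation of eIF2-alpha, stood at 53.0, 54.7 and 53.4 FPKM in control and at 279, 300.5 and 299 FPKM in Agrimol B libraries, a 5.45-fold rise (limma adjusted p = 3.65e-06). EIF2AK3 (PERK), the kinase that senses stress in the endoplasmic reticulum, rose 1.60-fold from 5.80 ± 0.296 to 9.30 ± 0.380 FPKM (limma adjusted p = 0.000435). The gene that fell, EIF2S3 (chosen after its values were seen), did so by 0.11 on the log2 scale (limma adjusted p = 0.0397), and this call was lost when any 1 library was left out.

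Most listed targets of ATF4 and CHOP outside the 10 genes rose, in a list also chosen with earlier results known. Of 37 tested, 32 rose and 1 fell, with a median log2 difference of 1.01, against 30.6% and 21.4% of all tested genes. GDF15, a secreted stress cytokine, stood at 1.26, 1.46 and 1.46 FPKM in control and at 39.0, 43.3 and 39.6 FPKM in Agrimol B libraries. SESN2, a leucine sensor that restrains mTORC1, stood at 3.23, 2.99 and 2.95 FPKM and at 34.0, 35.6 and 33.5 FPKM (limma adjusted p = 3.65e-06 for both). The genes of this list that did not pass the test were SLC7A5, NARS, ERO1A and PMAIP1, and the gene that fell was BCL2L11, which promotes apoptosis. These 5 were chosen after their values were seen. BCL2L11 fell by 0.66 on the log2 scale (limma adjusted p = 0.0345), a call lost when any 1 of the control libraries was left out and with the replicate number as a block.

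ATF6 and XBP1 drive the other branches of the unfolded protein response. Of 15 tested targets of ATF6 and XBP1, 12 rose and 0 fell, with a median log2 difference of 0.68, where 30.6% and 21.4% of all tested genes did. HERPUD1, a factor of protein degradation at the endoplasmic reticulum, stood at 21.0, 12.7 and 16.5 FPKM in control and at 55.3, 50.01 and 55.6 FPKM in Agrimol B libraries (limma adjusted p = 0.000511). The chaperone HSPA5 (BiP) stood at 155, 158 and 153 FPKM and at 426, 439 and 453 FPKM (limma adjusted p = 8.04e-06). CRELD2, PDIA4 and SEC61B, chosen after their values were seen, did not pass the test.

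**Figure D5:**
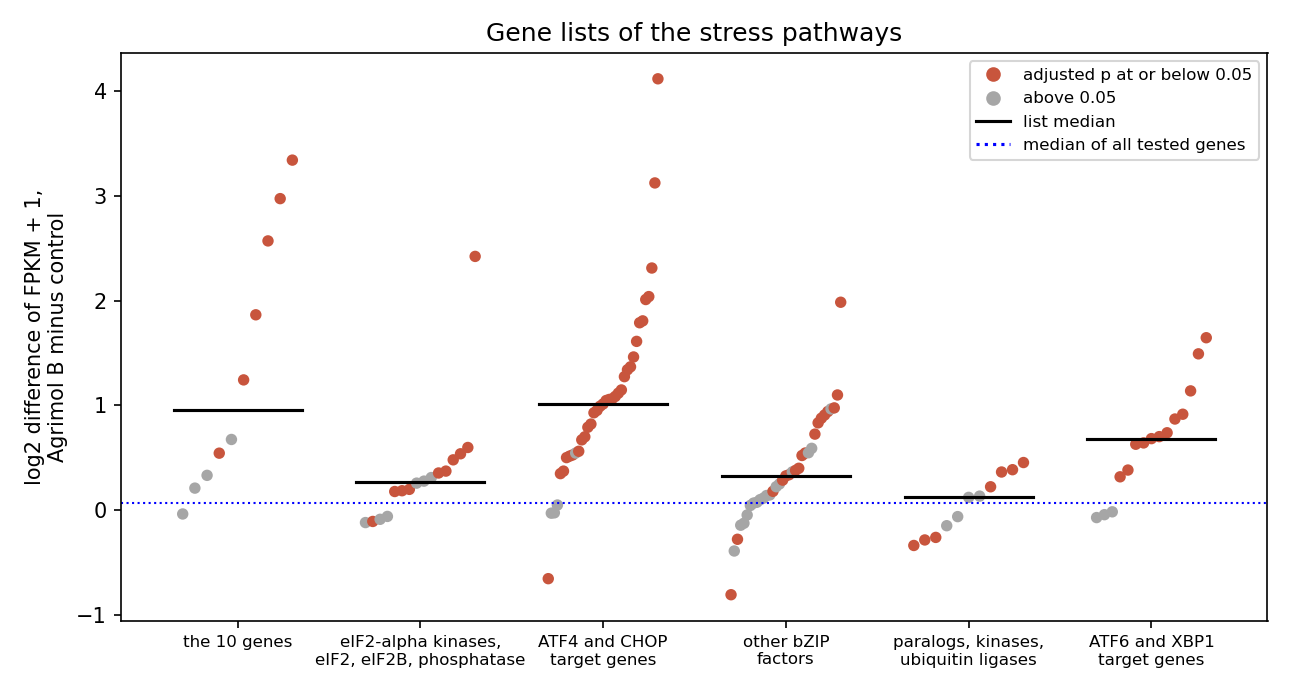
Log2 difference of FPKM + 1 (Agrimol B minus control, vertical axis) for each tested gene of 6 lists; points are genes, red where the adjusted p is at or below 0.05, black bars are list medians and the dotted line is the median of all tested genes. The median is 1.01 for ATF4 and CHOP target genes, 0.27 for the genes of the eIF2-alpha machinery and 0.07 for all tested genes.

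Other leucine zipper (bZIP) factors are possible partners of the 10 genes' products. Of 35 tested, 16 rose and 2 fell, with a median log2 difference of 0.33, against 30.6% and 21.4% of all tested genes. XBP1, the factor activated by IRE1 splicing, stood at 23.2, 31.1 and 21.1 FPKM in control and at 80.7, 92.2 and 139 FPKM in Agrimol B libraries (limma adjusted p = 0.00089), with the highest level again in replicate 3. NFIL3, a bZIP repressor, rose 2.22-fold from 14.5 ± 0.733 to 32.2 ± 1.27 FPKM (limma adjusted p = 4.92e-05). The 2 that fell, CREB3L1 and ATF2 (chosen after their values were seen), did so by 0.81 and 0.28 on the log2 scale (limma adjusted p = 8.98e-05 and 0.0316).

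A further list held relatives of TRIB3 and CHAC1. Of 11 tested paralogs, kinases and ubiquitin ligases linked to the 10 genes, 4 rose and 3 fell, with a median log2 difference of 0.12. These counts lie near the background of 30.6% rising and 21.4% falling among all tested genes. TRIB1, a pseudokinase related to TRIB3, rose 1.39-fold from 3.50 ± 0.430 to 4.87 ± 0.236 FPKM (limma adjusted p = 0.011). BTRC, a ubiquitin ligase subunit that marks ATF4 for degradation, rose 1.46-fold from 3.93 ± 0.611 to 5.72 ± 0.323 FPKM (limma adjusted p = 0.0118). The other two that rose were COP1 and EP300. TRIB2, CHAC2 and AKT1 fell by 0.29, 0.34 and 0.26 on the log2 scale (limma adjusted p = 0.0178, 0.0101 and 0.0217). These 5 were chosen after their values were seen.

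Profiles closest to those of the 3 genes in the group's name were sought over the 6 libraries, as the distance between values of log2(FPKM + 1) centred on the control mean. Outside the 10 genes, SESN2 was nearest to TRIB3 (distance 0.41), followed by KLHDC7B (0.467) and the chemokine CXCL8 (1.13). KLHDC7B stood at 0.0712, 0.102 and 0.0165 FPKM in control and at 11.8, 12.3 and 10.7 FPKM in Agrimol B libraries. Its mean rose 183-fold, against 10.8-fold for TRIB3. After adding 1 to each FPKM the log2 differences were 3.57 for KLHDC7B and 3.34 for TRIB3, so the nearness depends on that step. CXCL8 stood at 1.86, 1.40 and 1.02 FPKM in control and at 13.7, 15.04 and 15.3 FPKM in Agrimol B libraries. SESN2 was also nearest to DDIT3 (0.668), followed by the secreted peptide precursor VGF (0.798) and CXCL8 (0.861). For ATF4, whose difference was small, the nearest were C17orf100 (0.0494), AGAP2 (0.0681) and RELB (0.0719). With 2 groups of 3 libraries this distance is set mainly by the size of the group difference, and only 6 genes had larger differences than DDIT3.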

How the data were processed

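The members and gene lists were chosen with earlier results of these data known, and the promoter elements after the promoter windows had been read. Per the labels' protocols, strand-specific mRNA libraries were made. The authors deposited 1 table of FPKM values by gene symbol, with 1 column per library. FastQC, cutadapt, Trimmomatic, HISAT and the build hg38 are named in the submitters' processing notes. Which program and annotation gave the FPKM, and any filter on genes: not given in the sources used here. Control columns were matched to samples by their number, the 2 letters of the sample descriptions being swapped in the column names.

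The genes whose mean reached 1 FPKM were tested on log2(FPKM + 1) with limma 3.58.1 in R 4.3.3 (group term, variance trend, two-sided). Adding 1 makes the changes of low genes look smaller. The step was also run on simulated data with independent normal noise and changes in a small part of the genes. Its outcome is not given here. Beside the 10 genes, those named were the 2 called genes of each pathway list with the largest differences (fewer where fewer were called) and the 3 nearest profiles of TRIB3, DDIT3 and ATF4. Exact permutation tests used scipy 1.17.1. Alternatives were another pseudocount, filter, scaling, the replicate block and leaving out each library. One listed marker is not reported here.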

Additional observations from a re-analysis of the deposited data

How the results depend on the processing

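The counts of 6 genes that rose and 0 that fell among the 10 were recomputed under 12 alternatives. TRIB3, DDIT3, CEBPB, CEBPG, CHAC1 and ATF4 passed the test in all 12, with log2 differences of 3.28 to 3.43, 2.80 to 3.12, 2.51 to 2.62, 1.18 to 1.28, 1.61 to 2.16 and 0.48 to 0.66. JDP2 passed in 0 of 12 (adjusted p 0.0830 to 0.405), and NUPR1 in 0 of 11, since its mean is under the filter of 5 FPKM; its log2 difference was -0.17 to 0.18, with -0.17 without control replicate 2 and 0.18 without control replicate 1. ATF3 passed only without Agrimol B replicate 3 and ATF5 only without control replicate 2, and the count that rose was 6 to 7 when 1 library was left out. With median-ratio scaling the median log2 difference of all tested genes was 0.01 instead of 0.07.

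Small counts of falls moved most. Of the eIF2-alpha machinery 1 gene fell, against 3 with median-ratio scaling, 2 with quantile normalization, 0 with the replicate block and 0 whenever 1 library was left out. The 9 rises of this list also became fewer: 7 with median-ratio scaling, 6 with quantile normalization and 6 to 8 leaving out 1 library. Of ATF4 and CHOP targets 1 fell, against 0 with a filter of 5 FPKM, 0 with the replicate block and 0 to 1 leaving out 1 library. Of other bZIP factors 2 fell, against 4 with median-ratio scaling, 4 with quantile normalization and 1 to 3 leaving out 1 library. Of paralogs, kinases and ligases 4 rose, against 2 with a filter of 5 FPKM, and 3 fell, against 1 to 4 leaving out 1 library. Of ATF6 and XBP1 targets 1 fell with quantile normalization. The change of the ATF3 to JDP2 ratio (0.39, log2) was -0.062 to 1.07 leaving out 1 library, with the lowest value without Agrimol B replicate 2. The cause of these shifts was not tested.

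Replicate numbers are shared between the groups, but same-numbered libraries did not deviate together (correlations 0.037, -0.006 and -0.015), so the numbers were not taken as pairs. With the replicate block, 6 of the 10 genes rose and 0 fell, and 3392 genes rose and 2384 fell among all tested, against 3713 and 2598. The depth behind each FPKM value is unknown.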
